A study of Mus musculus with 9 samples.

Results

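The interferon-induced transmembrane family was followed through 4 mouse genes, Ifitm1, Ifitm2, Ifitm3 and Ifitm6, of 24532 genes in the deposited table. They were taken by gene symbol, and the counts of all transcripts of a gene were summed. Neutrophils, short-lived phagocytes made in the bone marrow, had been sorted by flow cytometry from lung, from peripheral blood and from bone marrow of wild-type C57BL/6 mice, with 3 replicates per tissue and 9 libraries of polyadenylated RNA. No treatment, age or sex is given in the labels, nor is the set of antibodies used in the sort. The design asks how neutrophils of the 3 tissues differ. Nothing in the labels says whether the replicates came from separate animals, so p-values measure the spread between these libraries.

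The encoded proteins are small membrane proteins of the cell surface and of endosomes, where they hinder the fusion of enveloped viruses with the cell's membranes. Interferons raise their genes through 2 kinds of promoter element. These are the interferon-stimulated response element (ISRE), bound by IRF proteins, and the gamma-activated site (GAS). Ifitm3 encodes the best-studied endosomal member, Ifitm1 a member found largely at the cell surface in human cells, and Ifitm2 a close relative of Ifitm3. Ifitm6 is a less studied rodent gene.

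All 4 are protein-coding genes on chromosome 7 of the mm10 build, within 62.1 kb. Ifitm2 (Entrez gene 80876) runs from 140954839 to 140955961 on the minus strand, and Ifitm1 (Entrez gene 68713) from 140967429 to 140969827 on the plus strand. After a gap of 39.8 kb follow Ifitm3 (Entrez gene 66141), from 141009590 to 141010744, and Ifitm6 (Entrez gene 213002), from 141015812 to 141016892, both on the minus strand. The promoter windows of the 4 genes are shown because the genes did not move together across the tissues. Each window holds 250 bases before and 50 bases from the transcription start, 5′ to 3′ on the gene's own strand, from RefSeq with the GRCm38.p6 build, the assembly of mm10. Capitals mark matches to the ISRE letters, GAAA then any 2 bases then GAAA, or to the GAS letters, TTC then any 3 bases then GAA, searched on both strands.
Ifitm1, chr7:140967826-140968125, plus strand: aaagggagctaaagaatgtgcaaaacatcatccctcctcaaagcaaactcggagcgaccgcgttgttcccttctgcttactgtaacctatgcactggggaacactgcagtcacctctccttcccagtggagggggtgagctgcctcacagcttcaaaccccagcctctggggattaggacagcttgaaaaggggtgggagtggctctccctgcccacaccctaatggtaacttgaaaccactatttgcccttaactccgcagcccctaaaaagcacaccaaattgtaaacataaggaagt
Ifitm2, chr7:140955912-140956211, minus strand: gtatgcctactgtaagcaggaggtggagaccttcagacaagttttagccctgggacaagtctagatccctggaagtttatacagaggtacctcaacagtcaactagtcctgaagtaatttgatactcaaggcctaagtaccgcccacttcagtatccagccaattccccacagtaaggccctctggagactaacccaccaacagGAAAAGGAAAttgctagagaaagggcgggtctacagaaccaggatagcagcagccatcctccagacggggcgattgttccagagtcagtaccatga
Ifitm3, chr7:141010695-141010994, minus strand: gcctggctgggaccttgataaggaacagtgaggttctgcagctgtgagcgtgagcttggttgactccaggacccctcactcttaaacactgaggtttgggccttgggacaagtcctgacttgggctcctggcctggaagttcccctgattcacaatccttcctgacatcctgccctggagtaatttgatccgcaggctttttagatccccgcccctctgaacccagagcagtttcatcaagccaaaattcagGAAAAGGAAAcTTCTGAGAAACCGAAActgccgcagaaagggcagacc
Ifitm6, chr7:141016843-141017142, minus strand: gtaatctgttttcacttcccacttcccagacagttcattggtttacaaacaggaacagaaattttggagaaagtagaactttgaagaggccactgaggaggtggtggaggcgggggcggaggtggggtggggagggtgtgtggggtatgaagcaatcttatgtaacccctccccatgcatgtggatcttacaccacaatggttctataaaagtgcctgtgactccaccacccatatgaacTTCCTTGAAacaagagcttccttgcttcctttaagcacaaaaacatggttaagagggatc

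The ISRE letters stood 2 times in the Ifitm3 window and 1 time in that of Ifitm2, where the Ifitm2 match and the first Ifitm3 match are the same letters, GAAAAGGAAA. The second Ifitm3 match was GAAACCGAAA, and its first bases overlap the GAS match TTCTGAGAA. The Ifitm6 window held a GAS match, TTCCTTGAA, and no ISRE match. Counted in bases from the transcription start, the Ifitm2 match began at -46 and the Ifitm6 match at -10. The Ifitm3 matches lay after the start, at 2 and 19 for the ISRE letters and at 13 for the GAS letters. Neither motif was in the Ifitm1 window, which belongs to the start of transcript variant 2, not to that of variant 1, the more abundant of the 2 in the deposited counts. Of 32851 promoter windows of the same length, 3.44% held the ISRE letters and 8.3% the GAS letters. A match describes letters, not a used site.

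The libraries held 42045548 to 56796219 counted reads, and the lowest count behind any value of the 4 genes was 2243 reads. On the first principal component lung replicate 3 was the lung library farthest from the others, at -27.4 against -97.0 and -81.0. Markers of other cells differed with it. The 9 fibroblast and smooth muscle markers summed to 1574, 1343 and 166 CPM (counts per 1e6 reads, with library sizes corrected by TMM, the trimmed mean of M-values) in lung replicates 1, 2 and 3, to 53.5 to 95.3 CPM in blood and to 122 to 270.4 CPM in bone marrow. The 8 B-cell markers summed to 41.3 to 434 CPM in lung, 59.3 to 371 CPM in blood and 26.9 to 109 CPM in bone marrow. The 9 lung epithelium markers summed to 903, 282 and 77.2 CPM in lung replicates 1, 2 and 3, and to 21.3 to 37.3 CPM in blood. In bone marrow replicates 1, 2 and 3 they summed to 14.6, 19.8 and 91.3 CPM. The 8 dendritic markers summed to 256 to 1003 CPM in lung, 71.1 to 449.9 CPM in blood and 50.4 to 78 CPM in bone marrow. The 10 macrophage markers summed to 297 to 1259 CPM in lung, 209 to 243 CPM in blood and 864 to 1162 CPM in bone marrow, but Chil3 alone averaged 938 CPM of the bone marrow sum. The other 9 macrophage markers summed to 225 to 333 CPM in lung, 141 to 171 CPM in blood and 60.7 to 80.7 CPM in bone marrow. Of all 10, 9 rose and 0 fell in lung against bone marrow by edgeR. The 15 neutrophil markers, all detected, summed to 30042 to 54097 CPM in lung, 32716 to 46858 CPM in blood and 96366 to 139176 CPM in bone marrow. S100a9 alone had 35167 to 53535 CPM of the bone marrow sums. By edgeR 2 of the 15 rose and 10 fell in lung against bone marrow, and 1 rose and 9 fell in blood against bone marrow. In such bulk samples fewer cells of a type and less RNA per cell cannot be told apart.

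Neutrophils of the 3 tissues carried different mixtures of the 4 transcripts, with close agreement between replicates. In lung, Ifitm2 made up 59.4%, 58.9% and 59.0% of the summed FPKM of the 4 genes (reads per kilobase of transcript per 1e6 reads), and Ifitm6 made up 2.7%, 3.07% and 2.94%. In blood, Ifitm2 held 45.6%, 45% and 46.6% and Ifitm6 5.96%, 5.96% and 5.08%. In bone marrow the order turned, with Ifitm6 at 49.5%, 49.7% and 45.8% and Ifitm2 at 21.6%, 20% and 22.9%. Ifitm1 held 26.9% to 27.3% in lung, 30.2% to 32.7% in blood and 6.83% to 7.76% in bone marrow. The Ifitm3 share was 10.5% to 11.1% in lung, 15.7% to 18.8% in blood and 21.2% to 24.4% in bone marrow. For each gene the shares of the 3 tissues did not overlap.

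**Figure D1:**
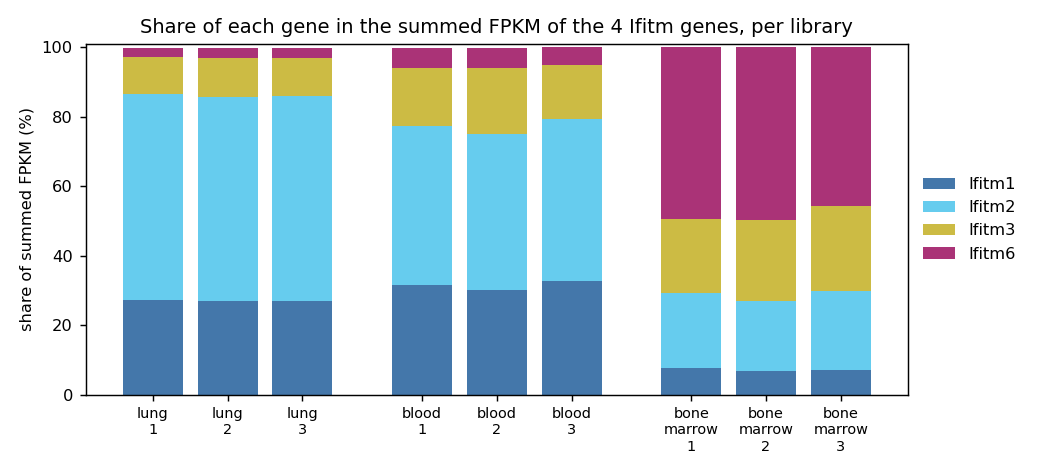
Share of each gene in the summed FPKM of Ifitm1, Ifitm2, Ifitm3 and Ifitm6 (y axis, percent) in each of the 9 libraries (x axis, by tissue and replicate). Ifitm2 takes 58.9% to 59.4% in lung and 45% to 46.6% in blood, and Ifitm6 takes 45.8% to 49.7% in bone marrow.

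Proportions between members were tested within libraries, which removes any scaling between libraries. The log2 ratio of Ifitm2 to Ifitm6 was 4.35 ± 0.10 in lung, 3.02 ± 0.16 in blood and -1.17 ± 0.16 in bone marrow (mean ± SD of FPKM ratios, n = 3 each). That of Ifitm1 to Ifitm3 was 1.31 ± 0.06 in lung, 0.89 ± 0.19 in blood and -1.68 ± 0.20 in bone marrow. Even the neighbours Ifitm3 and Ifitm6 kept no fixed proportion, with a log2 ratio of 1.91 ± 0.05 in lung, 1.59 ± 0.09 in blood and -1.07 ± 0.16 in bone marrow. The log2 ratio of Ifitm1 to Ifitm2 was highest in blood, at -1.13 ± 0.01 in lung, -0.54 ± 0.03 in blood and -1.58 ± 0.12 in bone marrow. All 6 pairs differed among the tissues by an exact permutation test over the 9 libraries, with p = 0.00357 for each pair and 0.00357 after Benjamini-Hochberg adjustment over the 6 pairs. This is the smallest p that the 1680 assignments of libraries to tissues can give. The 6 ratios come from the same few genes, so they are not independent of each other or of those genes' fold changes. The share of other gene pairs that would reach this p was not tested. With tissues exchanged only within each replicate number, an alternative added after the data were seen, p was 0.0278 for each of the 6 pairs, the smallest that the 216 assignments allow, and 0.0278 after adjustment over the pairs.

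The summed FPKM of the 4 genes was 3183 ± 151 in lung, 2311 ± 137 in blood and 2486 ± 270 in bone marrow (mean ± SD, n = 3 each), and the ranges of blood and bone marrow overlapped. By mean FPKM among 24532 genes, Ifitm2 had rank 29 in lung, 41 in blood and 118 in bone marrow. Ifitm1 had rank 70 in lung, 62 in blood and 397 in bone marrow. Ifitm3 had rank 229 in lung, 158 in blood and 105 in bone marrow, and Ifitm6 rank 779 in lung, 564 in blood and 46 in bone marrow. Within lung and within blood the FPKM ranges of the 4 genes did not overlap, in the order Ifitm2, Ifitm1, Ifitm3, Ifitm6. In bone marrow Ifitm6 was highest and Ifitm1 lowest, while Ifitm3 (477 to 679 FPKM) and Ifitm2 (486 to 635 FPKM) overlapped.

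**Figure D2:**
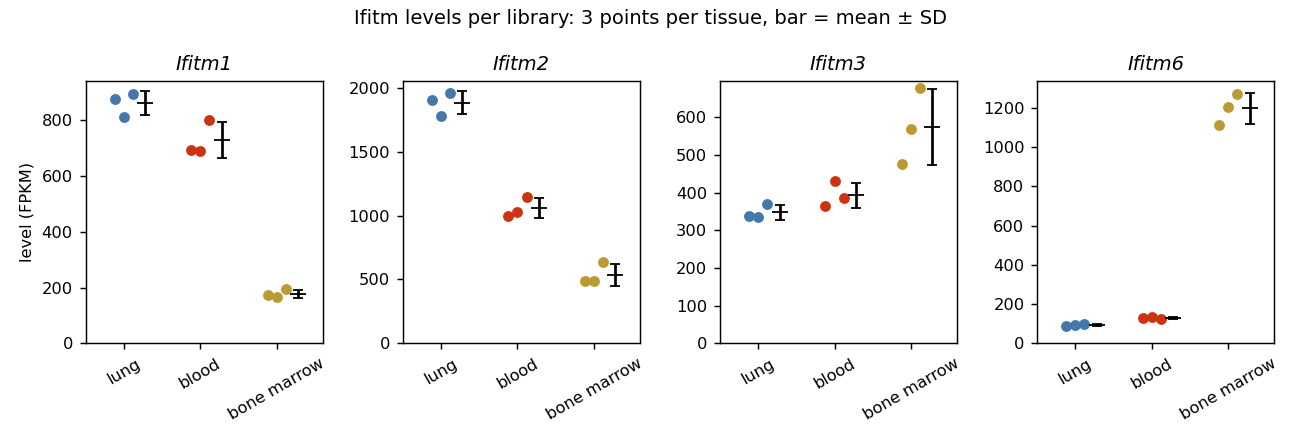
Level of each gene in FPKM (y axis, from 0, own scale per gene) in the 3 libraries of lung, blood and bone marrow (x axis), with mean and SD as bars. Ifitm1 and Ifitm2 are lowest in bone marrow, Ifitm3 and Ifitm6 highest, and Ifitm6 lies at 86.5 to 97.5 FPKM in lung against 1113 to 1272 FPKM in bone marrow.

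Of the 4 genes Ifitm6 showed the widest difference between blood and bone marrow, and Ifitm1 moved the other way. Ifitm6 stood at 67.4, 61.2 and 66.9 CPM in blood replicates 1, 2 and 3, against 663, 745 and 911 CPM in bone marrow. Every blood library lay far below every bone marrow library, a log2 fold change of -3.57 ± 0.25 (estimate ± SE), or 11.9-fold lower, and it passed the quasi-likelihood test of edgeR (adjusted p = 4.75e-05, Benjamini-Hochberg over 13510 genes). Ifitm1 stood at 452, 390.4 and 540.2 CPM in blood, against 131, 129 and 175 CPM in bone marrow. The groups did not overlap, and the log2 fold change was 1.67 ± 0.25 (3.18-fold higher, edgeR adjusted p = 0.00187). Both calls held in all 18 alternatives, with log2 fold changes of -3.69 to -3.19 for Ifitm6 and 1.57 to 2.03 for Ifitm1.

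Ifitm2 and Ifitm3 differed less between blood and bone marrow. Ifitm3 had 226, 231 and 247 CPM in blood, against 339.8, 422 and 582 CPM in bone marrow, with no overlap. It fell by 0.93 on the log2 scale (-0.93 ± 0.26, edgeR adjusted p = 0.0315). This call was lost without blood replicate 1, 2 or 3 (adjusted p = 0.223, 0.233 and 0.159), without bone marrow replicate 2 or 3 (0.0845 and 0.134), with DESeq2's size factors in edgeR (0.0748) and without the low-count filter (0.115). Ifitm2 had 598, 535 and 711 CPM in blood, against 335, 349 and 527 CPM in bone marrow. Its groups did not overlap either, but the log2 fold change of 0.61 ± 0.27 did not pass edgeR's test (adjusted p = 0.141). With the replicate number as a block it was 0.63 and passed (adjusted p = 0.0131), as it did with upper-quartile scaling (0.77, adjusted p = 0.0278), with the 6 libraries of these tissues alone (0.76, 0.0333) and with limma on log2(FPKM + 0.1) (0.99, 0.00214). Between blood and bone marrow 3 of the 4 genes thus passed, 1 higher and 2 lower, where edgeR called 21.4% of all genes tested, 8.34% higher and 13.1% lower. None of the 4 overlapped between these tissues, and neither did 45.4% of all genes tested.

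Ifitm2 alone passed between lung and blood, where it was higher in lung. Lung replicates 1, 2 and 3 had 1040.0, 1011 and 1611 CPM, against 598, 535 and 711 CPM in blood. The groups did not overlap, with replicate 3 highest in both tissues. The log2 fold change was 0.99 ± 0.27 (1.99-fold, edgeR adjusted p = 0.0229), and 28.9% of all genes were called in this comparison, 13.2% higher and 15.7% lower. Of all genes tested 41.6% did not overlap. Its call was lost without blood replicate 1, 2 or 3 (adjusted p = 0.127, 0.141 and 0.0789) and without the low-count filter (0.0544), with log2 fold changes of 0.89 to 1.16. Without lung replicate 3 it was 0.71 (adjusted p = 0.0445).

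The other 3 genes overlapped between lung and blood in CPM. Ifitm1 had 519, 501 and 798 CPM in lung, against 452, 390.4 and 540.2 CPM in blood. Its log2 fold change was 0.40 ± 0.24 (edgeR adjusted p = 0.258). Ifitm1 passed in none of 19 alternatives, but came near the threshold in edgeR with the replicate block (0.37, adjusted p = 0.0518). With upper-quartile scaling in edgeR it was also near (0.55, adjusted p = 0.0521). Ifitm3 had 190.2, 197 and 314 CPM in lung, against 226, 231 and 247 CPM in blood, and its log2 fold change of -0.01 ± 0.25 did not pass (edgeR adjusted p = 0.99) and changed sign with the scaling, at 0.14 with upper-quartile factors. Ifitm6 had 40.7, 45.4 and 69.2 CPM in lung, against 67.4, 61.2 and 66.9 CPM in blood, and its log2 fold change was -0.33 ± 0.22 (edgeR adjusted p = 0.313).

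Lung replicate 3 held the highest CPM of the lung libraries in each gene, and its TMM factor of 0.791, against 1.19 and 1.14 in replicates 1 and 2, enters every such value. In FPKM, which carry no TMM factor, Ifitm6 had 86.5 to 97.5 in lung against 124.9 to 136 in blood, and Ifitm1 had 813 to 894.5 in lung against 692 to 803 in blood, both without overlap. Limma on log2(FPKM + 0.1) called Ifitm6 lower in lung (-0.50, adjusted p = 0.00484), as did edgeR without lung replicate 3 (-0.63, adjusted p = 0.0247), and gave Ifitm1 0.24 (adjusted p = 0.165).

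Between lung and bone marrow all 4 genes passed, 2 higher and 2 lower in lung. This comparison shares its bone marrow libraries with that of blood and its lung libraries with the previous one. Ifitm6 was 14.9-fold lower, at 40.7, 45.4 and 69.2 CPM in lung against 663, 745 and 911 CPM in bone marrow, a log2 fold change of -3.90 ± 0.25 (edgeR adjusted p = 2.11e-05). Ifitm1 was 4.18-fold higher, at 519, 501 and 798 CPM in lung against 131, 129 and 175 CPM in bone marrow (log2 fold change 2.06 ± 0.25, edgeR adjusted p = 0.000308). Ifitm2 was 3.03-fold higher, at 1040.0, 1011 and 1611 CPM in lung against 335, 349 and 527 CPM in bone marrow (log2 fold change 1.60 ± 0.27, edgeR adjusted p = 0.00192). None of these 3 overlapped, and each call held in all 18 alternatives.

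Ifitm3 was lower in lung than in bone marrow, at 190.2, 197 and 314 CPM against 339.8, 422 and 582 CPM, a log2 fold change of -0.94 ± 0.26 (edgeR adjusted p = 0.0193). The highest lung library, replicate 3, lay nearest to the lowest bone marrow library, without overlap. This call was lost without lung replicate 1 or 2 (adjusted p = 0.0659 and 0.0703), without blood replicate 1, 2 or 3 (0.0916, 0.0897 and 0.0812) and without bone marrow replicate 2 or 3 (0.0521 and 0.0768). It was also lost with DESeq2's size factors in edgeR (0.0785), without the low-count filter (0.0812) and with the 6 libraries of these tissues alone (0.0865), always at a negative fold change. Of all genes tested 38.2% were called between lung and bone marrow, 15.6% higher and 22.6% lower, and 49% did not overlap.

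**Figure D3:**
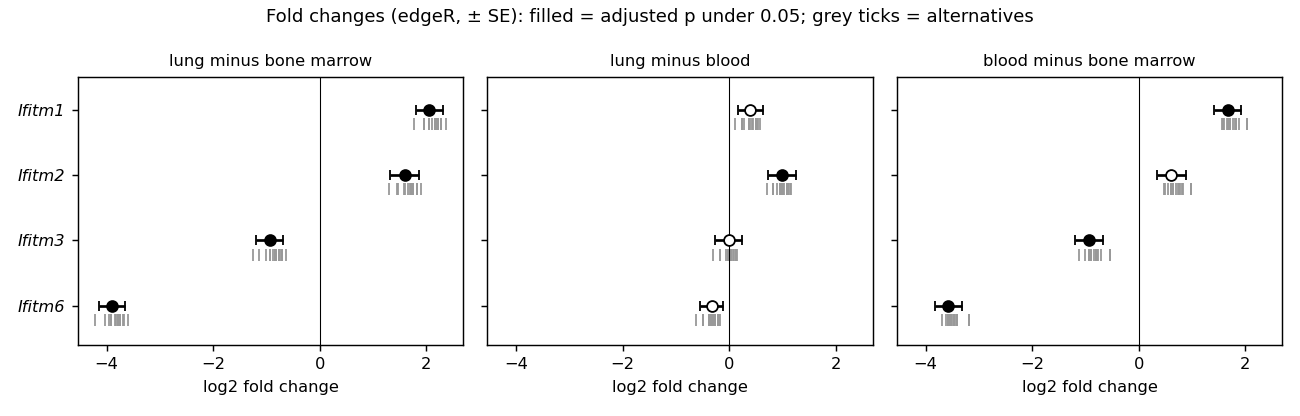
Log2 fold change of each gene (x axis, estimate and SE as point and bar) in lung minus bone marrow, lung minus blood and blood minus bone marrow, with the value under each alternative as grey ticks. Filled points passed edgeR's test at adjusted p under 0.05, and Ifitm6 lies at -3.90 and -3.57 in the comparisons with bone marrow.

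Markers of other cells differed between libraries of a tissue, and some of them are given beside the 4 genes. Lung replicate 3 had the lowest fibroblast, B-cell and endothelial sums of the lung libraries (166, 41.3 and 28.7 CPM, against 1343 to 1574, 375 to 434 and 75.8 to 108 CPM in replicates 1 and 2), and its shares of the 4 genes lay within 1 percentage point of theirs. Blood replicate 3 had a B-cell sum of 59.3 CPM, against 355 and 371 CPM in replicates 1 and 2, and the highest Ifitm1 level of the blood libraries (540.2 CPM). The 8 progenitor markers summed to 303, 148 and 44.1 CPM in bone marrow replicates 1, 2 and 3. In CPM Ifitm6 was highest in replicate 3 (911), where its share of the 4 genes was lowest (45.8%, against 49.5% and 49.7%). Between tissues these sums did differ, with progenitor markers at 10.8 to 78.5 CPM in lung, 4.03 to 10.01 CPM in blood and 44.1 to 303 CPM in bone marrow, and their part in the differences of the 4 genes was not tested.

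The transcripts of the family share some sequence, which bears on how reads were divided. Of the stretches of 50 bases in GENCODE transcripts, none of Ifitm6 occurs in another gene, while 5.02% of those of Ifitm1 and 10% of those of Ifitm3 do. For Ifitm2 the share was 48.5%, mostly with Gm45717, a gene model that spans Ifitm2 and Ifitm5, and with pseudogenes, so the Ifitm2 level is the least certain of the 4 in this respect. RSEM, a tool that divides shared reads between genes, gave Gm45717 11.8 to 35.6 expected counts in the lung and blood libraries, where Ifitm2 had 14069 to 33270. In RSEM's TPM the Ifitm2 share of the 4 genes was 59.5% to 59.8% in lung and 45.5% to 47.7% in blood, and edgeR on RSEM counts gave Ifitm2 a log2 fold change of 1.03 between lung and blood (adjusted p = 0.0303). The deposited counts give 2 variants of Ifitm1, and variant 1 took 80.6% to 84.8% of its reads in lung, 80.3% to 85.1% in blood and 75.8% to 79.7% in bone marrow.

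Other Ifitm genes of the table also differed between tissues. Ifitm5, known from bone-forming cells and lying 4.6 kb from Ifitm2 on the same strand, stood at 22.6, 21.5 and 33.4 CPM in lung, 12.4, 8.06 and 12.1 CPM in blood and 4.34, 3.35 and 3.53 CPM in bone marrow. It rose in lung against blood (log2 fold change 1.25 ± 0.24, edgeR adjusted p = 0.00564) and in blood against bone marrow (1.54 ± 0.24, adjusted p = 0.00276). In FPKM it reached 1.83% to 1.92% of the Ifitm2 level in lung, 1.33% to 1.84% in blood and 0.59% to 1.14% in bone marrow, and part of its transcript is shared with Gm45717. Ifitm10 had 1.34 to 6.32 CPM in lung, 2.04 to 10.1 CPM in blood and 19.4 to 26.4 CPM in bone marrow. It was lower in lung than in bone marrow (-2.57 ± 0.70, edgeR adjusted p = 0.0198), a call lost without lung replicate 2 (0.0651). Ifitm7 had 0 to 4 reads per library and was not tested.

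The family's genes can be read in chromosomal order, around the gap between Ifitm1 and Ifitm3. The genes left of it, Ifitm5, Ifitm2 and Ifitm1, had log2 fold changes of 2.79, 1.60 and 2.06 in lung against bone marrow, and those right of it, Ifitm3 and Ifitm6, had -0.94 and -3.90. Of 12 other genes within 100 kb of the family, 7 could be tested, and 3 of these passed in this comparison by edgeR, a share (42.9%) near that of all genes tested (38.2%). These 3, named because they passed, were Bet1l (-1.32), a vesicle transport gene, Sirt3 (1.18), which encodes a mitochondrial deacylase, and Psmd13 (-0.58), a proteasome subunit gene. Pkp3, the nearest tested gene beyond Ifitm6, did not pass (1.08, adjusted p = 0.249).

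**Figure D4:**
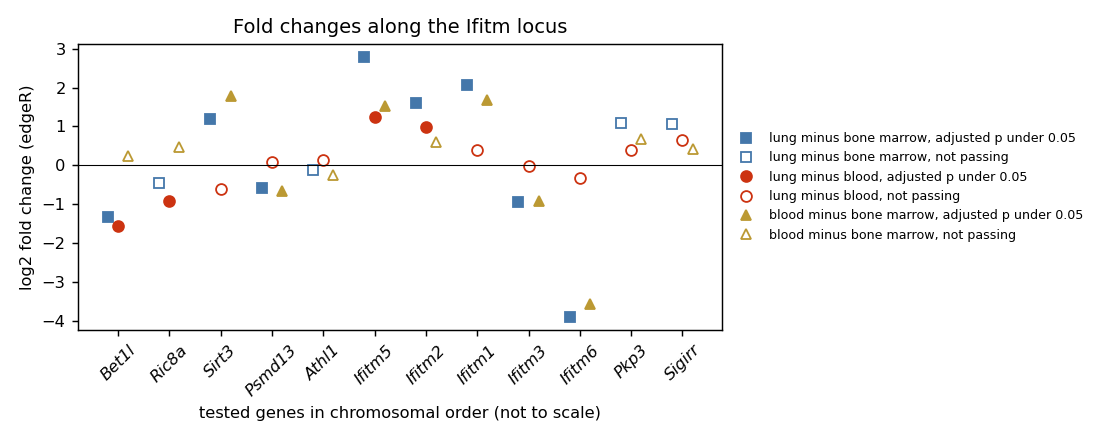
Log2 fold change (y axis) of the tested genes around the family, in chromosomal order and not to scale (x axis), in the 3 comparisons, filled where edgeR's adjusted p was under 0.05. Ifitm5, Ifitm2 and Ifitm1 lie above 0 in lung minus bone marrow, and Ifitm3 and Ifitm6 below it.

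Interferon-stimulated genes other than the family were mostly higher in blood than in bone marrow and mostly lower in lung than in blood, among those that passed. Of 58 such genes 16 rose and 2 fell in blood against bone marrow, with a median log2 fold change of 0.59, against -0.05 over all genes tested. Those called were 31% of the list, against 21.4% of all genes. Slfn5 and Irgm1, which encode a Schlafen protein and an immunity-related GTPase, rose by 1.80 ± 0.31 and 1.59 ± 0.29 (edgeR adjusted p = 0.00445 and 0.00557), beside 1.67 for Ifitm1 and -3.57 for Ifitm6. The called genes named here and in the next lists were picked from up to 3 per list, comparison and direction, among those whose calls held in every alternative. Not all genes that met this are named, and the choice was made after their values were seen. With the replicate block 27 rose and 4 fell, with DESeq2's size factors 15 rose and 0 fell, and with limma on log2(FPKM + 0.1) 38 rose and 1 fell. The genes called numbered 11, 7 and 7 without blood replicates 1, 2 and 3, and 9, 8 and 10 without bone marrow replicates 1, 2 and 3.

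In lung against blood, 2 of the 58 rose and 19 fell, with a median of -0.55 against 0.05 over all genes, and 36.2% of the list was called against 28.9% of all genes. Slfn1 (-2.37 ± 0.33), Dtx3l, a ubiquitin ligase gene (-1.98 ± 0.25), and Usp18, the gene of the ISG15 protease and interferon receptor inhibitor (-1.66 ± 0.31), fell by edgeR (adjusted p = 0.00141, 0.000877 and 0.00498). Isg15, which encodes the ubiquitin-like interferon-induced modifier, rose, at 145, 176 and 287.5 CPM in lung against 52.7, 47.8 and 54.8 CPM in blood (1.97 ± 0.29, adjusted p = 0.00182), beside 0.99 for Ifitm2. The replicate block gave 2 rises and 31 falls, and DESeq2's size factors 2 and 11. The genes called numbered 33 without lung replicate 3, 9 without blood replicate 2 and 5 without blood replicate 3. In lung against bone marrow 7 rose and 9 fell (10 and 16 with the block, 13 and 6 with upper-quartile scaling, 8 and 6 with DESeq2's size factors, and 10 called in all without bone marrow replicate 3), with a median of 0.08 against 0.06, and the 27.6% of the list called was below the 38.2% of all genes. Here Isg15 and Isg20, an exonuclease gene, rose (2.80 ± 0.30 and 1.65 ± 0.27), while Slfn1 and Cmpk2, a mitochondrial nucleotide kinase gene, fell (-2.04 ± 0.33 and -1.96 ± 0.32, edgeR adjusted p at most 0.00153).

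**Figure D5:**
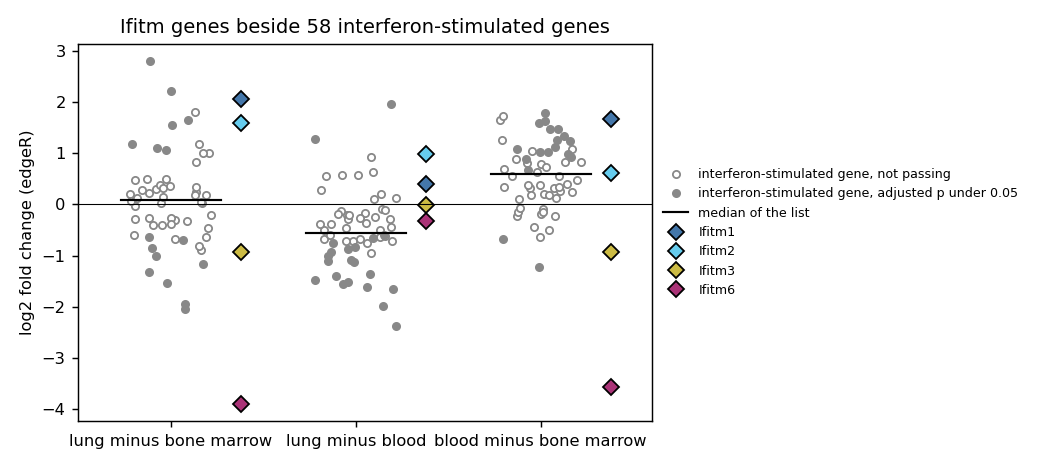
Log2 fold change (y axis) of 58 interferon-stimulated genes (circles, filled where edgeR's adjusted p was under 0.05, with the median as a line) and of the 4 Ifitm genes (diamonds) in lung minus bone marrow, lung minus blood and blood minus bone marrow. The list's median lies at 0.08, -0.55 and 0.59, and Ifitm6 lies below every gene of the list in both comparisons with bone marrow.

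Interferon genes themselves were hardly detected. Of 11 interferon ligand genes only Ifng, the gene of interferon gamma, passed the filter, at 0.149 to 4.52 CPM in lung, 0 to 0.661 CPM in blood and 1.3 to 5.72 CPM in bone marrow, and it passed edgeR's test in 0 of 3 comparisons. In blood against bone marrow it had an unadjusted p under 0.05, and DESeq2 but not limma-voom called it lower. Ifng was lowest in replicate 3 of each tissue. There the 9 T-cell and natural killer cell markers also had their lowest sums. These were 16.7 CPM in lung, 18.1 CPM in blood and 31.96 CPM in bone marrow. Replicates 1 and 2 had 99.9 and 108 CPM in lung, 35.2 and 97.2 CPM in blood and 76.6 and 85.4 CPM in bone marrow. Whether Ifng came from such cells was not tested. Ifnb1, the interferon beta gene, stayed at or below 0.581 CPM. Of 18 receptor and signalling genes, 5 rose and 4 fell in lung against blood, 4 and 3 in lung against bone marrow, and 3 and 2 in blood against bone marrow. The shares called were 50%, 38.9% and 27.8%, against 28.9%, 38.2% and 21.4% of all genes, so the last 2 were near those of all genes. Ifnar1, a chain of the type I interferon receptor, had 287, 298 and 466 CPM in lung, against 126, 134 and 134 CPM in bone marrow (1.41 ± 0.22, edgeR adjusted p = 0.00108). Ifnlr1, the interferon lambda receptor chain, was lower in lung than in bone marrow (-1.59 ± 0.30, adjusted p = 0.00331). Irf2, which encodes an IRF factor that can repress ISRE promoters, was lower in lung than in blood (-1.27 ± 0.18, adjusted p = 0.00153), and Irf1, an activator, was higher in blood than in bone marrow (1.07 ± 0.20, adjusted p = 0.00576).

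Among 10 inhibitors of interferon signalling, 2 rose and 3 fell in lung against blood, 3 and 3 in lung against bone marrow, and 1 and 1 in blood against bone marrow. The shares called were 50%, 60% and 20%, against 28.9%, 38.2% and 21.4% of all genes. Socs3, the suppressor of cytokine signalling, averaged 784 ± 208 CPM in blood and 139.9 ± 24.7 CPM in bone marrow (SD, n = 3 each; log2 fold change 2.49 ± 0.26, edgeR adjusted p = 0.000279). Of 15 tested genes whose proteins modify or bind the family's proteins, 5 rose and 4 fell in lung against blood, 1 and 8 in lung against bone marrow, and 0 and 5 in blood against bone marrow. The shares called were 60%, 60% and 33.3%, against the same shares of all genes as above. In blood against bone marrow the count of higher genes was also 0 by DESeq2, by limma-voom and at an unadjusted p under 0.05 in edgeR's test. In lung against blood 5 rose by DESeq2 but only 2 by limma-voom, while 4 fell by either method.

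Nedd4, the ubiquitin ligase that marks IFITM3 for degradation in human and mouse cells, had 13.8, 15.8 and 14.2 CPM in blood, against 107.5, 106 and 108.5 CPM in bone marrow (-2.88 ± 0.39, edgeR adjusted p = 0.00118). In lung it had 50.6, 38.5 and 14.1 CPM, lowest in replicate 3 as the fibroblast markers were. Zmpste24, a membrane metalloprotease that acts with IFITM proteins against viruses, averaged 9.99 ± 1.74 CPM in lung, 10.01 ± 1.05 CPM in blood and 46.1 ± 3.08 CPM in bone marrow (SD, n = 3 each). It was lower in lung and in blood than in bone marrow (-2.21 ± 0.16 and -2.20 ± 0.16, edgeR adjusted p = 2.95e-05 and 5.48e-05). Cd9, a tetraspanin gene, averaged 1120 ± 388 CPM in lung and 225 ± 53.8 CPM in blood (2.31 ± 0.30, adjusted p = 0.00108). Setd7, whose protein methylates human IFITM3, was lower in lung than in blood (-1.26 ± 0.20, adjusted p = 0.00222). Of 8 tested genes of other antiviral factors, 2 rose and 1 fell in blood against bone marrow. The 2 that rose were Ly6e, which hinders coronavirus entry, and Apobec3, a retrovirus restriction gene (1.26 ± 0.18 and 1.19 ± 0.18, edgeR adjusted p = 0.00184 and 0.00207). None of the 8 rose and 2 fell in lung against blood, and 2 rose and 1 fell in lung against bone marrow. The share called was 37.5% in blood against bone marrow (21.4% of all genes), 25% in lung against blood (28.9%) and 37.5% in lung against bone marrow (38.2%). In lung against blood the count of higher genes was also 0 by DESeq2 and limma-voom, and 1 at an unadjusted p under 0.05 in edgeR's test.

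The genes most like each member were sought among 4924 genes with a mean of at least 20 CPM, by Pearson's r of log2(CPM + 1) over the 9 libraries, which share their tissue differences and scaling. For Ifitm6 they were Ly6g (r = 0.999), the Ly6 family surface antigen of mouse neutrophils, Acad11 and Aph1b (both 0.998). Ly6g averaged 19.9 CPM in lung, 23.0 CPM in blood and 528 CPM in bone marrow. For Ifitm1 they were Mefv, the pyrin gene (0.992), Il1rap, a chain of the interleukin 1 receptor (0.991), and Rnf149 (0.988). For Ifitm2 they were Arrdc4 (0.992), Tpd52 (0.984) and the transcription factor gene Batf (0.983), and for Ifitm3 Lamtor1 (0.983), Klra2 (0.982) and Mgrn1 (0.979). Between members, r was 0.893 for Ifitm1 and Ifitm2, 0.907 for Ifitm3 and Ifitm6, and -0.926 for Ifitm1 and Ifitm6.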

How the data were processed

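RNA of sorted neutrophils was sequenced in 9 libraries, 3 per tissue. The authors deposited 1 table of the series with read counts and FPKM per transcript, and for lung and blood also RSEM expected counts and TPM per gene, per the file headers. The submitters' processing notes name Bowtie2, STAR, StringTie 2.1.3b, RSEM, DESeq2 and the mm10 build, without roles. The kit is named in the labels both as standard and as stranded. The deposited counts were whole numbers and were 1.87 to 1.90 times the RSEM totals per library, and the reason is not given in the sources used here. Column numbers run 1 above the sample titles and were mapped by each sample's own file name.

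Counts and FPKM were summed over the transcripts of a gene. The main test was edgeR 4.0.16 (R 4.3.3): TMM factors, filterByExpr (13510 of 24532 genes), a fit of tissue means to all 9 libraries and robust quasi-likelihood tests, with Benjamini-Hochberg adjustment over all tested genes in each of 3 comparisons and a threshold of 0.05. CPM values carry the TMM factors. Alternatives used other scalings, no filter, DESeq2 1.42.0, limma 3.58.1 (voom, and log2(FPKM + 0.1) or log2(FPKM + 1)), a replicate block, the 6 libraries of a comparison, RSEM expected counts rounded to whole numbers, and each library left out. A fold change on the log2(FPKM + pseudocount) scale understates the change of low genes. The scripts were tested on simulated data.

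Same-numbered libraries of different tissues deviated together (correlations of deviations 0.106 to 0.56 in 9 pairs, over 0.1 in each). By this threshold the numbers were taken to pair them, but only in the alternatives with a replicate block. The main tests and their p-values do not use the pairing. The 18 pairs with different numbers ran from -0.593 to 0.504, so some correlated more closely than pairs of the same number. The pairing is a hint from the data, since no label names a shared animal or day.

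The members and gene lists were chosen with earlier results of these data known. Per list, comparison and direction, up to 3 called genes could be named, by size of change, if their replicates did not overlap and the higher tissue averaged 20 CPM or more.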

Additional observations from a re-analysis of the deposited data

How the results depend on the processing

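Ifitm1 and Ifitm6 against bone marrow and Ifitm2 in lung against bone marrow kept their direction and call in all 18 alternatives. The p-values of the ratios between members lay at or near the smallest their permutations allow in each alternative, and so say nothing about stability. The following calls or signs changed, and the cause was not tested. Ifitm2 in blood against bone marrow passed with upper-quartile scaling (0.77), limma on log2(FPKM + 0.1) or log2(FPKM + 1) (0.99 each), the 6 libraries (0.76) and the replicate block (0.63). Ifitm2 in lung against blood was lost without the low-count filter (1.02), and ranged over 0.71 to 1.16 when each library was left out. Ifitm3 in blood against bone marrow was lost with DESeq2's size factors in edgeR (-0.89) and without the filter (-0.83), and ranged over -1.12 to -0.70 with libraries left out. Ifitm3 in lung against bone marrow was lost with DESeq2's size factors (-0.77), without the filter (-0.81) and with the 6 libraries (-0.88), and ranged over -1.25 to -0.72. Ifitm3 in lung against blood, not called in any setting, changed sign with DESeq2's size factors (0.12), DESeq2 (0.12), upper-quartile scaling (0.14), no filter (0.03) and RSEM counts (0.03), and ranged over -0.31 to 0.12, at 0.12, 0.09 and 0.08 without lung replicate 1, lung replicate 2 and blood replicate 3. Ifitm6 in lung against blood passed with limma on log2(FPKM + 0.1) or log2(FPKM + 1) (-0.50 each), and ranged over -0.63 to -0.18, passing without lung replicate 3.

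With libraries left out, the genes called ranged over 1236 to 3965 of a main 2892 in blood against bone marrow, 1922 to 5852 of 3900 in lung against blood and 3258 to 6984 of 5158 in lung against bone marrow. Of the 58 interferon-stimulated genes, 7 to 23 were called in blood against bone marrow, 5 to 33 in lung against blood and 10 to 24 in lung against bone marrow. With the replicate block these counts were 31, 33 and 26, with limma on either log2(FPKM) scale 39 in blood against bone marrow and 32 in lung against blood, and with DESeq2's size factors 13 in lung against blood. The block changed no call of the 4 genes other than that of Ifitm2 in blood against bone marrow.

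The median log2 fold change of all genes was -0.05 in blood against bone marrow, 0.05 in lung against blood and 0.06 in lung against bone marrow, and in the same order 0.11, 0.21 and 0.38 with upper-quartile scaling, -0.01, 0.15 and 0.20 with DESeq2's size factors, and 0.25, -0.09 and 0.23 with limma on log2(FPKM + 0.1). The share of calls that were higher was 39%, 45.6% and 40.9%, against 52.6%, 55.9% and 59.3% with upper-quartile scaling and 67%, 34.8% and 51% with limma on log2(FPKM + 0.1). DESeq2's size factors gave 43.1%, 56.9% and 52%. No result was limited by counts of the 4 genes, which were at least 2243 reads. Groups of 3 libraries were too small to search for outlying samples.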
